A study of Mus musculus with 2 samples.

Results

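The genes described here are 10 members of the circadian clock and its direct output, listed by name as 2 sets of opposite phase. The Bmal1-phase group holds Arntl (Bmal1), Npas2, Nfil3 and Cry1, and the Dbp-phase group holds Dbp, Tef, Nr1d1, Nr1d2, Per2 and Per3. Of the 10 genes, 9 had a probe set annotated to that single symbol, among 19938 genes so annotated on the array. Npas2 had none and is not analysed here, so the Bmal1-phase group had 3 measured members and the Dbp-phase group 6. Each of the 9 had exactly 1 probe set, so the values of no member could be compared between probe sets.

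The study profiled Oma1-deficient (Oma1_KO, 1 array) and control (Oma1_WT, 1 array) white adipose tissue of mice. Both were taken at an age of 24 weeks and after 20 weeks of high-fat feeding. Oma1 is a protease of the mitochondrial inner membrane. Total RNA was hybridised to Affymetrix Mouse Gene 1.0 ST arrays, and the deposited intensities are linear and rounded to whole numbers. The labels give no fat depot, no strain, no allele, no number of mice per array and no clock time of tissue collection. With 1 array per genotype there is no replicate check, no test was possible, and precision is limited by having so few arrays. The Oma1 probe set itself read 155 in Oma1_KO and 187 in Oma1_WT, a log2 difference of -0.27 that cannot serve as a check of the genotype, because the labels do not say where the gene was disrupted. Sizes are counted at a log2 difference of 0.32, which is 25% more intensity on one array than on the other, and at 1.5-fold.

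In mammalian cells the heterodimer of BMAL1 with CLOCK, or with its paralogue NPAS2, activates genes that carry E-boxes, among them the Per, Cry and Nr1d genes and Dbp. PER and CRY proteins then repress that heterodimer. The NR1D proteins (REV-ERBs) repress, and ROR proteins activate, genes with ROR elements, including Arntl, Npas2 and Nfil3, and for this reason transcripts of these genes cycle roughly in antiphase to Nr1d1 and Dbp. White fat holds such a clock, and in mice its rhythm is known to follow feeding.

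Arntl and Nfil3 read lower on the Oma1_KO array than on the Oma1_WT array, while Dbp and Nr1d1 read higher. The remaining measured members, Cry1, Tef, Nr1d2, Per2 and Per3, differed by less than 0.32 on the log2 scale. All differences are given as log2(intensity + 1) in Oma1_KO minus Oma1_WT. The median difference was -0.54 over the 3 genes of the Bmal1-phase group and 0.17 over the 6 genes of the Dbp-phase group. Over the 11394 genes whose mean over the arrays reached an intensity of 83, the median of all probe sets, it was -0.06. All 9 measured members reached that floor.

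Among those 11394 genes, 9.74% were lower by at least 0.32 and 5.0% higher by at least 0.32 on the log2 scale, 1.74% lower by at least 1.5-fold and 1.23% higher by at least 1.5-fold. Of the 9 members, 2 were lower by at least 0.32, Arntl and Nfil3, and 2 were higher by at least 0.32, Dbp and Nr1d1. At 1.5-fold, 1 member was lower, Arntl, and 0 were higher. Since the members were listed with results of these arrays known, these counts describe the genes and are not evidence for a difference between genotypes.

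Arntl encodes BMAL1, the partner of CLOCK or NPAS2 in the clock heterodimer. It read 140 on the Oma1_KO array and 215 on the Oma1_WT array. The Oma1_KO value was the lower one, with a difference of -0.62, or 1.53-fold. Of the 11394 genes above the floor, 171 had a lower difference. The 1.5-fold size was not kept under 5 of 6 other settings, among them upper quartile scaling, where the difference was -0.54.

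Nfil3, which encodes the basic leucine zipper repressor E4BP4, read 114 in Oma1_KO and 166 in Oma1_WT. It too was lower in Oma1_KO, by -0.54, or 1.45-fold, and 2.34% of the genes above the floor had a lower difference. E4BP4 binds the same D-box elements as DBP and TEF and opposes them there.

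Cry1, a repressor of the BMAL1 heterodimer, read 93 in Oma1_KO and 98 in Oma1_WT. Its difference was -0.07, close to the median of all genes, and 46.6% of genes had a lower one. Both intensities lay just above the floor of 83, and rounding of the deposited values alone allows a difference between -0.09 and -0.06. Cry1 carries ROR elements as well as E-boxes, and its transcript is known to peak later than those of the Per genes.

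Dbp encodes a D-box activator of the PAR basic leucine zipper family and is a direct target of the BMAL1 heterodimer. It read 838 in Oma1_KO and 574 in Oma1_WT. The difference of 0.55, or 1.46-fold, was the highest among the members, and 1.42% of genes had a higher one. Under the 4 settings that rescale the arrays Dbp passed 1.5-fold, with differences between 0.60 and 0.62.

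Tef, a second PAR activator, read 414 in Oma1_KO and 359 in Oma1_WT, a difference of 0.21. It lay on the same side as Dbp, with 10.8% of genes showing a higher difference.

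Nr1d1 encodes REV-ERB alpha, the repressor of Arntl and Nfil3. It read 3576 in Oma1_KO and 2828 in Oma1_WT. The value in Oma1_KO was higher by 0.34, or 1.26-fold, and 4.46% of genes had a higher difference. Its paralogue Nr1d2, which encodes REV-ERB beta, read 1064 in Oma1_KO and 1015 in Oma1_WT, a difference of 0.07.

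Per2 and Per3 belong to the negative limb of the loop; PER2 takes part in repression of the BMAL1 heterodimer, and PER3 is held to be less essential for it. Per2 read 246 in Oma1_KO and 224 in Oma1_WT, a difference of 0.13. Per3 read 362 in Oma1_KO and 367 in Oma1_WT, a difference of -0.02. The 2 values of Per3 were nearly equal, and its sign turned to positive under the 4 rescaling settings.

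**Figure D1:**
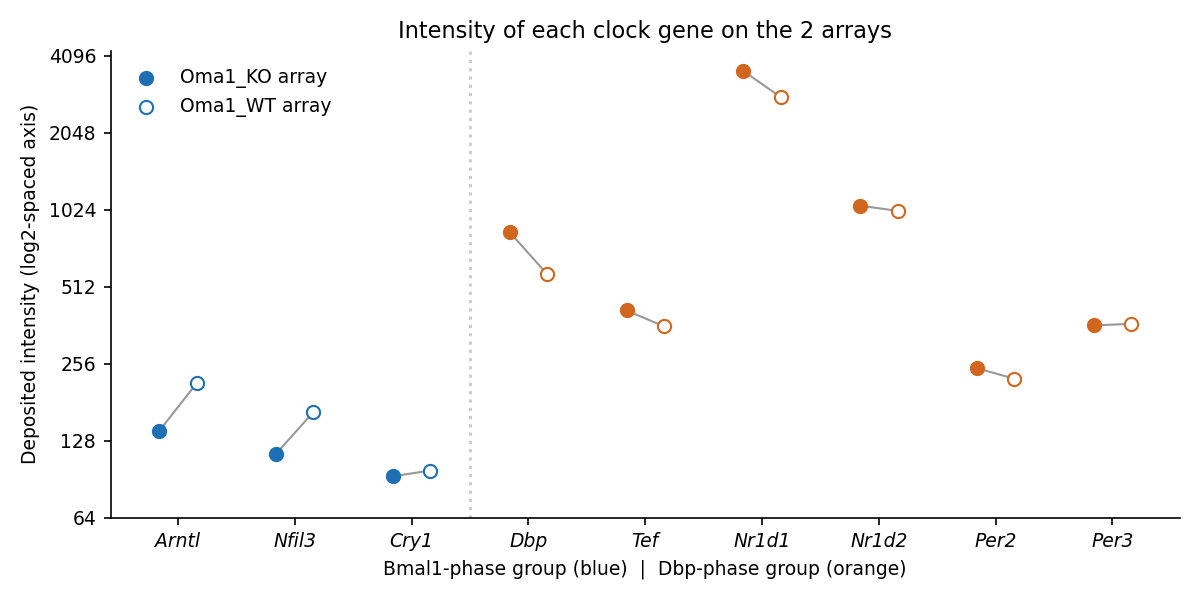
Deposited intensity (log2-spaced axis) of the 9 measured members on the Oma1_KO array (filled, left of each pair) and the Oma1_WT array (open, right of each pair), with 1 array per genotype and no error bars. Lines slope up from Oma1_KO to Oma1_WT for Arntl and Nfil3 and down for Dbp and Nr1d1, and are almost flat for Cry1, Nr1d2 and Per3. Heights of different genes are not comparable, since each probe set has its own affinity.

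In order of their differences the members ran Arntl, Nfil3, Cry1, Per3, Nr1d2, Per2, Tef, Nr1d1 and Dbp. Every member of the Bmal1-phase group thus lay below every member of the Dbp-phase group, but Cry1 and Per3, which meet in the middle, were only 0.06 apart. Since the members were listed with results of these arrays known, this separation is a description and not evidence. It also depends on which genes were listed. Outside the members, Per1 (-0.20) and Usp2 (-0.33) lay below Cry1 (-0.07), while Hlf (0.42) lay on the side of Dbp. For scale, the 545 genes above the floor with exactly 2 probe sets gave an SD of 0.17 between the differences of their probe sets, which corresponds to 0.24 for a difference between a pair of genes. This measures disagreement of probe sets on the same RNAs and not the spread between mice. Of the 8 steps between neighbours in the order, only that between Nfil3 and Cry1, at 0.46, was larger than 0.24. In this order Arntl and Nfil3 came before that step and the other 7 members after it. Along the other 7 no step exceeded 0.24, although the ends of that run, Cry1 and Dbp, lay further apart. Neighbours in a sorted order lie close by construction, so the steps describe the order and do not establish separate classes.

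The contrast between members does not depend on a constant shift between the arrays. It does depend on the choice of members, which was made with results of these arrays known, so it is a description only. The median of the Bmal1-phase group minus that of the Dbp-phase group was -0.71, and ranged from -0.65 to -0.75 under the other settings that kept all members. Dbp and Arntl differed by 1.16 in their differences, which is a 2.24-fold change of Dbp relative to Arntl. Nr1d1 and Arntl differed by 0.95, or 1.94-fold.

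**Figure D2:**
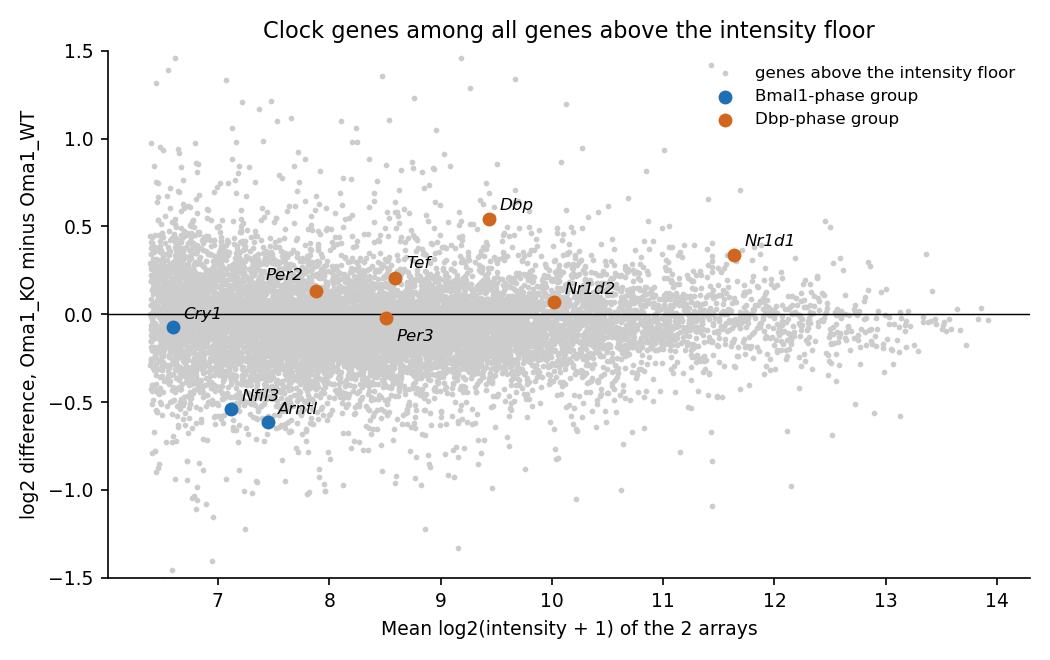
Log2 difference (Oma1_KO minus Oma1_WT, vertical axis) against mean log2(intensity + 1) of both arrays (horizontal axis) for the genes above the floor (grey), the Bmal1-phase group (blue) and the Dbp-phase group (orange); 19 genes beyond 1.5 on the vertical axis are not drawn. Arntl and Nfil3 lie low and Dbp and Nr1d1 high in the grey cloud, with genes further out on either side (171 below Arntl and 162 above Dbp), and the other members lie near its middle.

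The promoters of 5 members are shown because they hold matches to elements through which the clock is known to act. RefSeq windows of 300 bases on GRCm38.p6, from 250 before to 50 after a transcription start, were given for 9 of the 10 genes (all but Per2), in 11 windows. They were searched on both strands for the E-box CACGTG, the D-box TTATGTAA or TTACGTAA, and the core of the ROR element, TAGGTCA, motifs chosen with the sequences already in view. Windows with the ROR core made up 2.61% of all 32851, those with the E-box 7.15% and those with the D-box 1.06%. Among the 11 windows of the members, the ROR core was in 2, the E-box in 3 and the D-box in 1. The ROR core was found in Arntl and Nfil3. A relation of these matches to the differences was not tested. In the windows below, listed as Arntl (chr7:113207261-113207560, plus strand), Nfil3 (chr13:52980990-52981289, minus strand), Cry1 (chr10:85185005-85185304, minus strand), Tef (chr15:81802423-81802722, plus strand) and Per3 (chr4:151044616-151044915, minus strand), capitals mark the matches, and each sequence reads 5′ to 3′ along its gene.
Arntl: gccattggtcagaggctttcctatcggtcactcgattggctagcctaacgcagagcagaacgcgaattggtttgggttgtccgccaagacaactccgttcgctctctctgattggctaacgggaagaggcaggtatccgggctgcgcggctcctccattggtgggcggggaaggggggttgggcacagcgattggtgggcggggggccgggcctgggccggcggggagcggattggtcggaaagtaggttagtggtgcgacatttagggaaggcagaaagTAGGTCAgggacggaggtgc
Nfil3: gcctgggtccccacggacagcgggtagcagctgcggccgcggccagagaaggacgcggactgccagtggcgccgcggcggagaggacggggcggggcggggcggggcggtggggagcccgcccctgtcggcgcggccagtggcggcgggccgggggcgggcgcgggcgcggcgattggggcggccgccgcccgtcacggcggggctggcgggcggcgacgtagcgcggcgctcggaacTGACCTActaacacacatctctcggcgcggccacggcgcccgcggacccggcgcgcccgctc
Cry1: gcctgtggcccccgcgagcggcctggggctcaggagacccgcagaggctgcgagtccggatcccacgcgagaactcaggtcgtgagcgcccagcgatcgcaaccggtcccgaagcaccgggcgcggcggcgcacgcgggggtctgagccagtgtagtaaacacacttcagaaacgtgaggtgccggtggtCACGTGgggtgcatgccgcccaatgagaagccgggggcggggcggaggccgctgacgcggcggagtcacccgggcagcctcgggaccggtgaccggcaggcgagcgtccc
Tef: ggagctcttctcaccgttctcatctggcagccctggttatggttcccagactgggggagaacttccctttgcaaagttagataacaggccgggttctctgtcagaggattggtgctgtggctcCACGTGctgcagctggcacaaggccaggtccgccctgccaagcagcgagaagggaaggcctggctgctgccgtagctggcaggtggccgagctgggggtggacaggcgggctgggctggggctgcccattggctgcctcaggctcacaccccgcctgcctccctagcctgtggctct
Per3: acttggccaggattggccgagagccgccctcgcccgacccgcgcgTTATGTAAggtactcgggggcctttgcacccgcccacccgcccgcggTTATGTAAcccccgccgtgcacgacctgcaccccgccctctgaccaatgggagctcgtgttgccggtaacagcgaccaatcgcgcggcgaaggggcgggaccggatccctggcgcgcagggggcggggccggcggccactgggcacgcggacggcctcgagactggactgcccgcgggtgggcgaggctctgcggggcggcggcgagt
In Arntl the ROR core began at base 31 downstream of the start, counted from 1 at the start itself, and the other Arntl window, which lies further upstream, did not reach it. In Nfil3 the core was read on the opposite strand and began 12 bases upstream. Cry1 had an E-box match 60 bases upstream, Tef had 1 in each of its 2 windows, at 127 and 138 bases upstream, and Per3 had 2 D-box matches, at 205 and 158 bases upstream. The windows of Npas2, Dbp, Nr1d1 and Nr1d2 held none of these letters, which says only that they are not in these windows. A match is a description of sequence and was not tied to binding in this tissue.

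Other genes of the clock did not follow a single direction. Of 10 measured genes of the core clock and its loops outside the members, 8 were lower and 2 higher in Oma1_KO, with a median of -0.08, while 62.3% of all genes above the floor were lower and 36.6% higher. Of the 10, 2 were higher by at least 0.32, Hlf and Ciart, and 0 lower by that size. Among all genes above the floor, 5.0% were higher and 9.74% lower by that size. The probe sets of Ciart disagreed, and Rorb, counted among the 10, was below the floor. Hlf, the remaining PAR activator, read 156 in Oma1_KO and 116 in Oma1_WT (0.42), on the side of Dbp and Tef. Clock, the partner of BMAL1, read 963 in Oma1_KO and 1158 in Oma1_WT (-0.27), on the side of Arntl.

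Of the E-box-driven repressors outside the members, 4 read lower in Oma1_KO, while Ciart, described next, had probe sets on both sides of 0. Per1 read 341 in Oma1_KO and 393 in Oma1_WT (-0.20), although Per2 was on the other side of 0. Cry2, the paralogue of Cry1, read 370 in Oma1_KO and 422 in Oma1_WT (-0.19). Bhlhe40 and Bhlhe41 encode DEC1 and DEC2, repressors that compete at E-boxes; Bhlhe40 read 268 in Oma1_KO and 309 in Oma1_WT (-0.20), and Bhlhe41 read 226 in Oma1_KO and 243 in Oma1_WT (-0.10). All 4 differences were smaller than 0.32.

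Ciart, which encodes the repressor CHRONO, averaged a difference of 0.34 over 2 probe sets that disagreed. One read 99 in Oma1_KO and 58 in Oma1_WT (0.76), and the other 126 in Oma1_KO and 134 in Oma1_WT (-0.09). Its direction is therefore unsettled. The ROR gene Rora read 338 in Oma1_KO and 346 in Oma1_WT (-0.03), and Arntl2, a paralogue of Arntl, read 108 in Oma1_KO and 109 in Oma1_WT (-0.01). Rorb was below the floor at 23 in Oma1_KO and 24 in Oma1_WT.

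Of 8 measured genes listed as modifiers or partners of clock proteins, such as casein kinases and F-box proteins, 4 were higher and 4 lower. Their median was -0.04, and 0 reached 0.32. Fbxl21, counted among the 8, was below the floor at 66 in Oma1_KO and 61 in Oma1_WT. The largest difference was that of Nono, a PER-associated RNA-binding protein, at 1318 in Oma1_KO and 1505 in Oma1_WT (-0.19).

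Of 7 measured genes regarded as clock-controlled outputs, 6 were lower and 1 higher, beside 62.3% of all genes lower, and only Usp2 reached 0.32, a size by which 9.74% of all genes were lower. Their median was -0.18, beside -0.06 over all genes, and -0.12 after subtraction of the median difference or -0.11 after upper quartile scaling. Usp2, a deubiquitinase that cycles in phase with Dbp in many mouse tissues, read 176 in Oma1_KO and 222 in Oma1_WT (-0.33), opposite to Dbp. Nampt, the rate-limiting enzyme of NAD salvage and an E-box target, read 824 in Oma1_KO and 977 in Oma1_WT (-0.25). Wee1, a cell-cycle kinase driven through E-boxes, read 189 in Oma1_KO and 199 in Oma1_WT (-0.07).

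Of the metabolic outputs, Pnpla2 and Alas1 read lower in Oma1_KO, and Lipe and Insig2 were nearly equal. Pnpla2, the adipose triglyceride lipase, read 5540 in Oma1_KO and 6769 in Oma1_WT (-0.29), and Lipe, hormone-sensitive lipase, 5213 in Oma1_KO and 5189 in Oma1_WT (0.01). Alas1, the first enzyme of haem synthesis, read 2385 in Oma1_KO and 2704 in Oma1_WT (-0.18), and Insig2, a REV-ERB target in mouse liver, 1087 in Oma1_KO and 1094 in Oma1_WT (-0.01). A uniform direction among E-box targets was therefore not seen in the deposited values, since Dbp and Nr1d1 were higher in Oma1_KO and Per1, Usp2 and Nampt lower. The lower side rests on small differences. Per1 (-0.20) and Nampt (-0.25) did not reach 0.32, and 21.8% and 16.5% of genes had a lower difference. Usp2 (-0.33) passed that size only narrowly, without subtraction of the median difference of all genes (-0.06).

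**Figure D3:**
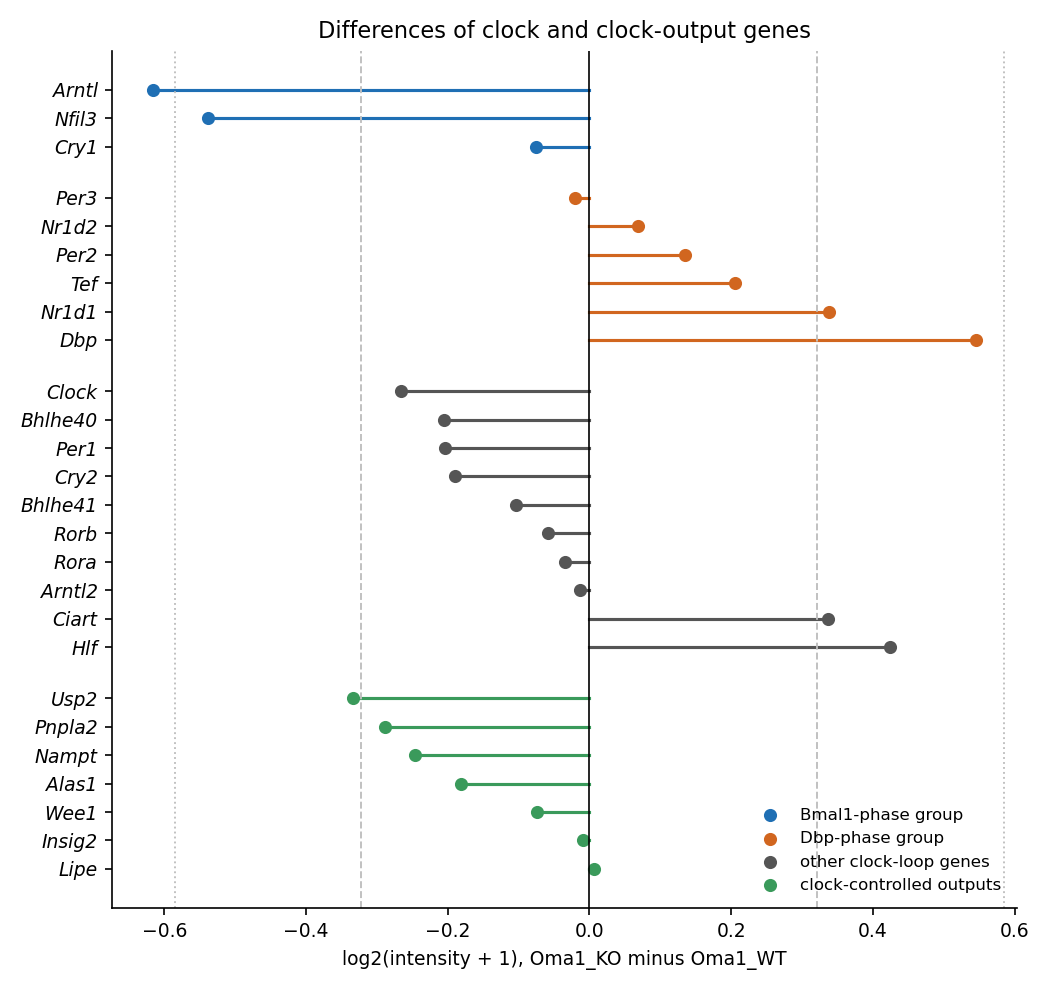
Log2 difference (Oma1_KO minus Oma1_WT) of each measured member, of the other clock-loop genes and of the clock-controlled outputs, 1 point per gene and no error bars, with 1 array per genotype. Dashed lines mark 0.32 and dotted lines 1.5-fold. Blue and orange points separate, with Cry1 and Per3 nearly touching, while grey and green points lie mainly left of 0, apart from Ciart, Hlf and Lipe.

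Systemic signals that also drive Per and other clock genes were followed by 2 short lists. Of 10 glucocorticoid-induced genes 8 were lower and 2 higher, with a median of -0.06, equal to that of all genes. Among all genes above the floor 62.3% were lower and 36.6% higher, and 9.74% were lower by at least 0.32. Of these 10 only Zbtb16, a transcription factor, passed 0.32, at 639 in Oma1_KO and 1178 in Oma1_WT (-0.88). Of 7 temperature-responsive genes 4 were lower and 3 higher (median -0.10). Hsph1, a cochaperone, read 285 in Oma1_KO and 371 in Oma1_WT (-0.38). Hspa8, a chaperone, averaged -0.69 because 1 of its 3 probe sets read 2009 in Oma1_KO and 7865 in Oma1_WT, while the other two differed by -0.06 and -0.04.

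The tissue was checked by marker lists. All 9 measured adipocyte markers were bright on both arrays, from 786 to 9316 in Oma1_KO and from 839 to 10771 in Oma1_WT. All 9 were lower in Oma1_KO (median -0.12). Among all genes above the floor 62.3% were lower and 36.6% higher, with a median of -0.06. The upper quartile of all intensities was also lower in Oma1_KO, at 318 beside 335 in Oma1_WT. Liver markers lay on the side of Dbp and Nr1d1. Of 12, 11 were higher in Oma1_KO (median 0.72), Tat being lower (-0.31). Their summed intensity was 9569 in Oma1_KO and 4296 in Oma1_WT, of which Alb alone gave 4523 and 1692. Such sums, here and for the lists below, weight the brightest probe sets most and do not measure an amount of RNA. Liver has a strong clock of its own. Macrophage markers were also higher in 10 of 11 (median 0.28; summed 38876 in Oma1_KO and 33034 in Oma1_WT).

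Other markers lay on the side of Arntl and Nfil3, the side on which 62.3% of all genes above the floor lay. Endothelial markers were lower in 9 of 9 (median -0.39; summed 7424 in Oma1_KO and 9603 in Oma1_WT), mesothelial markers in 7 of 8 (median -0.55; summed 1761 in Oma1_KO and 2586 in Oma1_WT) and B cell markers in 5 of 5 measured, of which 3 were above the floor (median -0.51; summed 649 in Oma1_KO and 914 in Oma1_WT). Skeletal muscle markers were dim, with 4 of 8 above the floor and a median of 0.05 (summed 739 in Oma1_KO and 679 in Oma1_WT). No marker was listed at 0, the lowest deposited intensity being 8 on either array. The part of these cells in the differences of the clock genes was not tested, and in tissue RNA fewer cells of a type and less RNA per cell cannot be told apart.

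The medians of both groups kept their signs when the arrays were rescaled. The Bmal1-phase median ran from -0.46 to -0.54 and the Dbp-phase median from 0.16 to 0.24 over 6 other settings applied to all members, and the median of all genes stayed between -0.06 and 0.01.

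**Figure D4:**
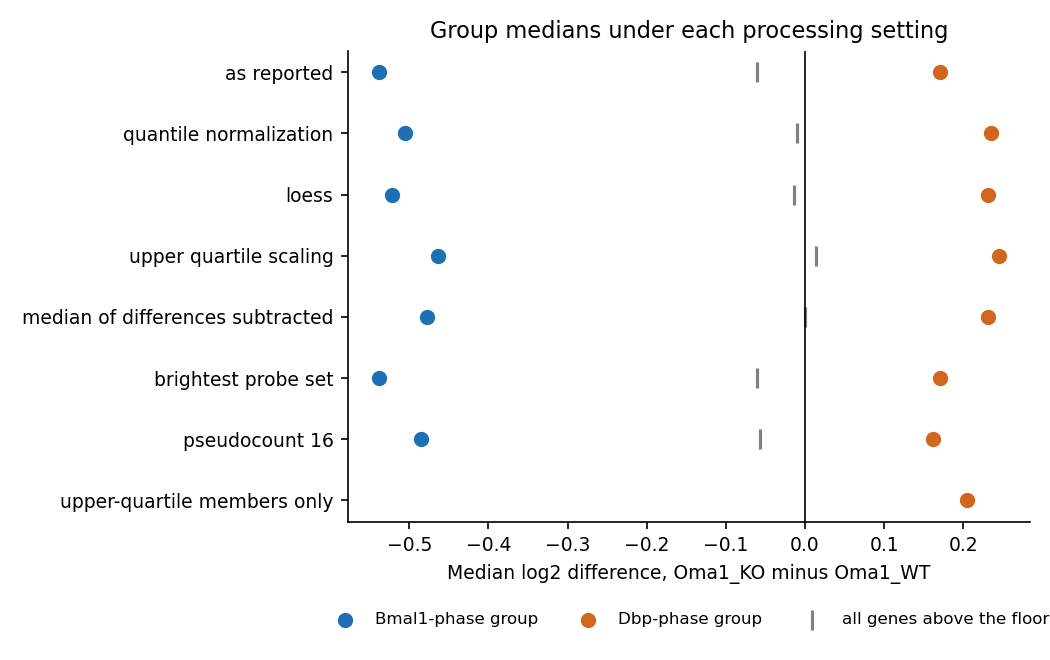
Median log2 difference (Oma1_KO minus Oma1_WT) of the Bmal1-phase group (blue, 3 genes), the Dbp-phase group (orange, 6 genes) and all genes above the floor (grey bars) as reported and under each other setting. Blue points stay at or below -0.46 and orange points at or above 0.16; with members at or above the upper quartile only, no gene of the Bmal1-phase group was left.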

How the data were processed

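The values were intensities that the authors deposited, 1 per probe set and array, as whole numbers on a linear scale. Per the labels, biotin-labelled total RNA was hybridised to Affymetrix Mouse Gene 1.0 ST arrays; software, background correction, probe summary and scaling were not given in the sources used here. Medians were 83 on both arrays and upper quartiles 318 in Oma1_KO and 335 in Oma1_WT. GEO's platform annotation gave the gene names: 21789 of 35512 had 1 symbol, 1621 several and 12102 none, and only the first entered. All 9 measured members matched RefSeq (GRCm38.p6) by gene identifier.

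Intensities were taken to log2 after a pseudocount of 1, which understates differences of dim genes, and probe sets of a gene were averaged. No detection calls were used. Sizes of 0.32 (log2) and 1.5-fold were used, with no test. Text names all members, every measured gene of the other clock-loop and output lists, and, of the modifier, glucocorticoid and temperature lists, those past 0.32 or, failing that, the largest. Members and lists were chosen with earlier results of these data known. The procedure was run on simulated data with known changes added to chosen genes. That run checks the calculation only and says nothing on variation between mice. Alternatives were quantile normalization, loess, upper quartile scaling, subtraction of the median difference, the brightest probe set, a pseudocount of 16, and bright members only. Python 3.11.15, numpy 2.4.6, pandas 2.3.3, statsmodels 0.14.6 and matplotlib 3.10.9 were used.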

Additional observations from a re-analysis of the deposited data

How the results depend on the processing

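No paired analysis was possible because each genotype had 1 array, and for the same reason no array could be left out. All alternatives were planned. The signs of both group medians and of the contrast between them held under every alternative that gave a value. For the contrast this was fixed in advance under subtraction of the median difference and the brightest probe set. Upper quartile scaling is close to a constant shift and could barely move it. The signs of 8 of the 9 members held as well, but that of Cry1 is not settled. Its difference was -0.0004 under upper quartile scaling and -0.0141 after subtraction of the median difference, within the 0.015 that rounding allows. Per3 turned positive under quantile normalization, loess, upper quartile scaling and subtraction of the median difference. Under those 4 the count of members higher by at least 1.5-fold was 1, Dbp, in place of 0. Under those 4 and a pseudocount of 16 the count lower by at least 1.5-fold was 0 in place of 1. Taking the brightest probe set changed no member, since each had 1. With members at or above the upper quartile intensity of 326 only, 5 were left, all of the Dbp-phase group, so that 0 were lower by 0.32 on the log2 scale or by 1.5-fold and the contrast had no value. The measured Bmal1-phase members thus lay under that intensity; signal over background was not measured, since no detection calls were used.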
